A study of Drosophila melanogaster with 12 samples.

Results

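The genes described here encode the proteins of the fly's cytosolic and mitochondrial ribosomes. They were chosen by current symbol: RpL or RpS followed by a number, the RpLP stalk proteins, sta and sop for the cytosolic ribosome, and mRpL or mRpS for the mitochondrial ribosome. Of 6628 genes with a value on any array, 70 fitted the rule, 22 cytosolic and 48 mitochondrial. A further gene, RpS19b, had a spot and no value. The same rule fits 166 genes of the reference annotation, 93 cytosolic and 73 mitochondrial, so most of the cytosolic ribosome was not measured. The genes with a value divide into 15 cytosolic large subunit, 7 cytosolic small subunit, 29 mitochondrial large subunit and 19 mitochondrial small subunit genes. RpS6, the small-subunit protein phosphorylated by S6 kinase, had no named spot, and neither did RpLP2, RpL40, RpS27A, sta or sop.

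The cytosolic ribosome translates nearly all messenger RNA of the cell. The mitochondrial ribosome translates the few proteins encoded by the mitochondrial genome, which are subunits of the respiratory chain and ATP synthase, and all of its own proteins are made in the cytosol and imported. In each ribosome the small subunit decodes the message and the large subunit joins the amino acids, and each carries a stalk that recruits translation factors. Cytosolic ribosomal protein genes are among the most highly expressed genes of most tissues and answer to growth signalling, while mitochondrial ones follow the demand for respiration.

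The samples were heads of unmated Oregon-R wild-type males. The sample labels give an age of 4 to 5 days, and the series text 3 to 4 days at the start of treatment. The flies were older than that at harvest. Treated flies ate food with 8 mg/ml of pentylenetetrazol (PTZ), a convulsant that blocks GABA-A receptors, for 7 days, followed by plain food. Counted from the first day of feeding, heads were harvested on day 8, 10 or 14, so withdrawal had lasted 1, 3 or 7 days. Each of the 12 spotted cDNA arrays compared treated heads with untreated heads of the same day in 2 colours. There were 4 arrays a day, with pools of heads from vials of 30 flies, and the replicates are biological per the series text. The series asked how gene expression in the head after withdrawal differs from that of flies never given the drug.

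A value is the deposited log2 ratio of a spot, with the array median set to 0 and the spots of a gene averaged. The direction of the ratio is likely but unsettled. By the channel labels, Cy5 always carried the treated heads, the series text says that the dyes of 2 of the 4 arrays were swapped, and the labelling text of 3 day 10 arrays names Cy3, so signs are given as deposited. With that reading, a value above 0 means more signal from treated heads. In whole heads, fewer cells of a type and less RNA per cell cannot be told apart. A ratio shows no level, and a cDNA spot may also bind close copies of its gene, so the paralogs RpS5b, RpS10a, RpS15Ab, RpS28b and RpL34a are uncertain in identity.

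The arrays differed in how many genes passed the authors' spot filters. Between 17.7% and 86.5% of all genes had a value on a sample, against 45.5% to 100% of the cytosolic and 12.5% to 87.5% of the mitochondrial genes. Replicate 4 of day 14 was the thinnest, with 10 cytosolic and 6 mitochondrial genes. The 4 day 8 columns were identical wherever a pair of them held a value (4790 of 4790 spots for replicates 1 and 2, largest difference 0), and were counted as 1 sample, which leaves 9 samples. Of the marker genes of head tissues, 2 of 6 neuronal, 5 of 8 eye 3 of 5 glial and 1 of 5 muscle genes had a value, which says only that their spots passed the filters.

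**Figure D1:**
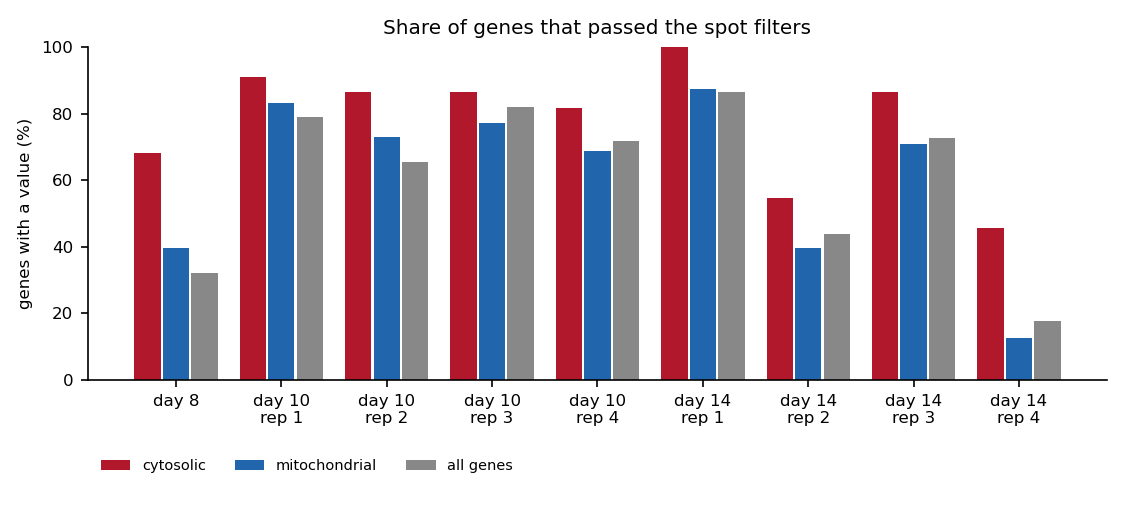
Share of genes with a value, in percent, for each of the 9 samples, for cytosolic, mitochondrial and all genes. The cytosolic share lies between 45.5% and 100%, and replicate 4 of day 14 has the lowest share of all 3 sets.

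Relative to the array median and with all arrays kept, the cytosolic genes lay slightly above 0 and the mitochondrial genes slightly below it. No gene of either set passed the test at any day. At day 10 the cytosolic median was 0.11, with 15 of 19 tested genes above 0, and the mitochondrial median was -0.02, with 16 of 38 above 0. Over all genes tested the median was 0.01, with 53.1% above 0. At day 14 the medians were 0.03 with 9 of 13 above 0, and -0.03 with 6 of 19 above 0, against 0.01 and 52.2% over all genes. These shifts are small beside the spread of single genes: the middle 50% of all genes spanned -0.10 to 0.15 at day 10 and -0.10 to 0.12 at day 14. The positions hold only relative to the array median, and some changed sign when a single array was left out. The day 10 mitochondrial median was 0.001 without replicate 3 (20 of 40 genes above 0) and 0.009 without replicate 4 (20 of 38). The day 14 cytosolic median was -0.035 without replicate 3 (6 of 13 genes above 0). Leaving out any other array of day 10 or day 14 kept the signs of the set medians. In the values as deposited, where the day 10 array medians lay between -0.309 and -0.198, both set medians of day 10 were below 0, at -0.14 and -0.27. Turning the signs of replicates 3 and 4, as a possible dye swap, put the day 10 mitochondrial median at 0.12, above the cytosolic one at 0.03. The same turn put the day 14 mitochondrial median at 0.025, above the cytosolic one at -0.10, with 2 of 13 cytosolic genes above 0.

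**Figure D2:**
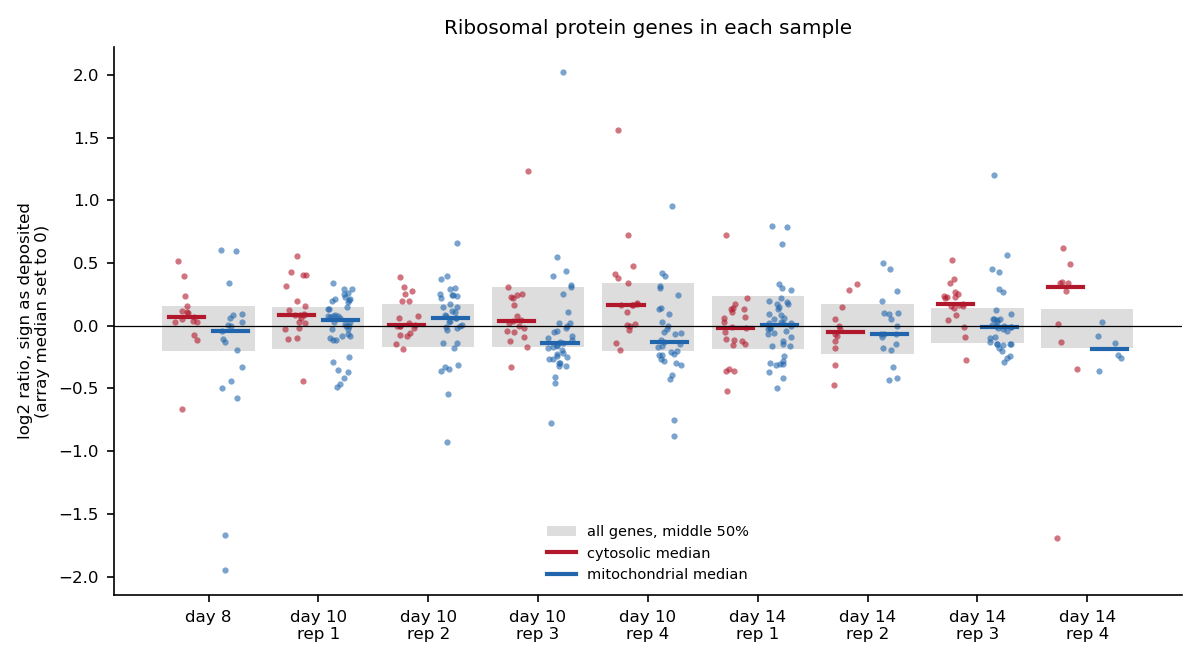
Log2 ratio of every cytosolic and mitochondrial ribosomal protein gene with a value in each of the 9 samples (points), with the set medians (lines) and the middle 50% of all genes (grey bands). The cytosolic median lies above the mitochondrial one in 7 of 9 samples, and single genes reach from -1.95 to 2.02.

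Sample by sample, the cytosolic median exceeded the mitochondrial one in 7 of 9 samples. At day 8 they stood at 0.07 and -0.04. At day 10 the cytosolic medians were 0.08, 0.00, 0.04 and 0.17 on replicates 1 to 4, and the mitochondrial medians were 0.04, 0.06, -0.14 and -0.13. Replicates 3 and 4 thus held the low mitochondrial values, while the cytosolic medians stayed at or above 0 on all 4 arrays. At day 14 the cytosolic medians were -0.02, -0.05, 0.17 and 0.31 and the mitochondrial ones 0.01, -0.07, -0.01 and -0.18. The difference averaged 0.11 ± 0.16 (SD, n = 4) at day 10 and 0.17 ± 0.23 (SD, n = 4) at day 14, so it was no larger than the spread between arrays at day 10 or day 14. The difference of the set medians over gene means was 0.13 at day 10 and 0.04 without replicate 4. At day 14 it was 0.06, and -0.02 without replicate 3, 0.16 without replicate 1 and 0.21 without replicate 2. Leaving out replicate 2 also changed the genes, from 13 cytosolic and 19 mitochondrial to 19 and 31. With all arrays kept and at least 2 values needed, the day 14 difference was 0.13. The sets have no test of their own here, because their genes are not replicates of a condition.

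At day 10, 57 of the genes were tested and limma called 0 of them at an adjusted p under 0.05, as it called 0% of the 4651 genes tested. At an unadjusted p under 0.05 there were 3 of 19 cytosolic genes above 0 and none below, and 3 of 38 mitochondrial genes below 0 and none above. The same threshold took in 13.2% of all genes, 7.57% above 0 and 5.61% below. The share of both sets together, 6 of 57, is thus near that of all genes. By subunit, the day 10 medians were 0.13 for the cytosolic large and 0.11 for the cytosolic small subunit, and -0.02 and -0.05 for the mitochondrial large and small subunit.

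Among cytosolic large subunit genes at day 10, RpL17, whose protein lines the tunnel through which the new chain leaves, stood at 0.40, 0.30, 0.31 and 0.16 on replicates 1 to 4. All 4 arrays were above 0 and close together (mean 0.29, SE 0.11, limma adjusted p = 0.281). RpL3, a protein that reaches toward the peptidyl transferase centre, stood at 0.15, 0.25, 0.25 and 0.17, again with every array above 0. RpL34a stood at 0.43, 0.02, 0.04 and 0.16, with replicate 1 carrying most of its mean.

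RpL32, the gene also called rp49 that is widely used as a reference in fly RNA measurements, stood at 0.03, 0.00, 0.02 and 0.11 at day 10. The values of this reference gene lay within 0.11 of the array median on all 4 arrays. Of its 20 spots, between 2 and 4 had a value on the day 10 arrays, and the spots of 1 array varied with an SD of 0.05 to 0.15. At day 14 RpL32 was measured on 2 arrays, at 0.06 and 0.23. In the day 8 sample it stood farther from the array median, at 0.395, from 2 of its 20 spots on the second column.

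RpLP0, the base of the stalk that recruits elongation factors, stood at 0.20, -0.08, 0.22 and 0.41 at day 10, so 3 of 4 arrays were above 0 (mean 0.19, SE 0.11, limma adjusted p = 0.489). Its partner RpLP1 had a single value, -0.01 on replicate 1 of day 14. RpL23, at the face where the subunits join, stood at -0.02, 0.00, -0.17 and 0.72, and its mean of 0.13 ± 0.40 (SD, n = 4) rests on replicate 4. RpL27 stood at 0.08, -0.19, 0.23 and 0.48, with 1 array below 0.

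RpL29, RpL39 and RpL15 lay close to 0 at day 10. RpL39, a short protein of the exit tunnel, stood between -0.12 and 0.02, RpL29 between -0.14 and 0.08 and RpL15 between -0.07 and 0.08. For these 3 genes the arrays fell on both sides of 0. RpL28, by contrast, divided by array, at 0.32 and 0.28 on replicates 1 and 2 and -0.02 and -0.19 on replicates 3 and 4.

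The symbols RpL24-like, RpL7-like and RpLP0-like fit the rule but end in -like, and from their counterparts in yeast such genes act in assembly of the large subunit and not in the finished ribosome. Without them and the paralogs of uncertain identity, the cytosolic median was 0.102 at day 10 (10 of 12 genes above 0) and 0.125 at day 14 (6 of 8). The difference from the mitochondrial median was then 0.123 at day 10 and 0.152 at day 14. RpL24-like stood at 0.55, 0.20, -0.05 and 0.17 at day 10 (limma adjusted p = 0.484), with 1 array below 0. RpL7-like stood between -0.10 and 0.20 at day 10, and at 0.72 and 0.22 on the 2 day 14 arrays that measured it. RpLP0-like had 1 day 10 value, -0.44, and 3 at day 14 between -0.12 and 0.17.

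Among cytosolic small subunit genes, RpS28b stood at 0.40, 0.39, 0.25 and 0.38 at day 10. Every array was above 0, with a mean of 0.36 (SE 0.10, limma unadjusted p = 0.00702, adjusted p = 0.224). On the 1 day 14 array with a value, replicate 1, RpS28b stood at -0.36.

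RpS10a, a copy of the RpS10 gene known for enriched expression in the fly germ line, stood at -0.11, 0.06, 1.23 and 1.56 at day 10. Replicates 1 and 2 were near 0 and replicates 3 and 4 far above it, so the mean of 0.69 ± 0.83 (SD, n = 4) describes no single array (limma adjusted p = 0.334). It was the highest cytosolic mean of the day. With the replicate number as a block limma's adjusted p became 0.0468, although the replicate numbers were not found to pair the arrays. That fit had as many terms as RpS10a had values. Its p therefore rests on the spread of other genes and does not measure that between the RpS10a arrays. Its 1 value at day 14 was -0.52, on replicate 1.

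Markers of other tissues were read on the same arrays. The ovary and germ line list, with 3 genes, had a median of -0.06 on replicate 1, no value on replicate 2, 0.78 on replicate 3 and -0.18 on replicate 4. Testis genes had a median of 0.58 and 0.53 on replicates 1 and 2, no value on replicate 3 and 0.51 on replicate 4. Yolk protein genes, expressed in the female fat body and ovary, stood at 0.30, 0.14, -0.17 and 1.12. These lists rest on 0 to 3 genes an array, and their part in the RpS10a values was not tested. RpS5b, another copy enriched in the germ line, stood at 0.12, -0.15 and -0.33 on replicates 1 to 3, and -1.69 on replicate 4 of day 14, the lowest cytosolic value of all samples.

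RpS7 stood at 0.10, -0.01, 0.16 and 0.18 at day 10 and RpS15Ab at 0.06, 0.00, 0.05 and 0.34. Each had 1 array just below 0 and 3 above it. RpS12, known in the fly as the protein through which cells with too few ribosomes are outcompeted by their neighbours, stood between -0.01 and 0.08. On replicate 4 of day 10 its spots lay 1.46 apart. RpS20 had no day 10 value and stood at 0.07 and 0.23 on 2 day 14 arrays.

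The mitochondrial genes with the lowest day 10 means lay below 0 on every array. mRpS33, a small-subunit protein, stood at -0.49, -0.14, -0.78 and -0.76 (mean -0.54, SE 0.12, limma unadjusted p = 0.00131, adjusted p = 0.144). This is the smallest p of either set at day 10. At day 14 it stood at -0.06, 0.05 and -0.23, close to 0 on the first and second of these.

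mRpS7, the counterpart of a bacterial protein that starts assembly of the small subunit, stood at -0.36, -0.33, -0.25 and -0.88 at day 10 (limma adjusted p = 0.208), and at 0.30 and 0.27 on the 2 day 14 arrays with a value. All day 10 arrays were below 0 and both day 14 arrays above it, but with 2 values at day 14 the difference was not tested. mRpL33 stood at -0.29, -0.93, -0.13 and -0.16 (limma adjusted p = 0.304), and replicate 2 set it apart. mRpL18 stood at -0.25, -0.55, -0.04 and -0.11 at day 10 and at -0.28 and 0.45 at day 14.

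At the other end, mRpL19 had a day 10 mean of 0.50 ± 1.34 (SD, n = 3) from values of -0.46, 2.02 and -0.06. Replicate 3 alone decided it. mRpS29, the fly counterpart of the GTP-binding protein DAP3, which in mammals is linked to cell death, stood at -0.10, 0.54 and 0.40 on replicates 1, 3 and 4. mRpS34 stood at -0.11, -0.36, 0.39 and 0.95, and its arrays divided 2 against 2.

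mRpL12, the stalk protein of the mitochondrial ribosome, which in human cells also binds the mitochondrial RNA polymerase, stood at -0.01, 0.22, -0.08 and -0.43 at day 10. Its day 14 values were -0.02, 0.27 and -0.14. The arrays of both days fell on either side of 0 (limma adjusted p = 0.846 at day 10 and 0.983 at day 14).

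mRpS18B, a small-subunit protein, was the only gene of either set with 1 sign on every array of days 10 and 14, among the 21 with at least 7 values there. It stood at 0.29, 0.00, 0.25 and 0.31 at day 10 and at 0.65, 0.50 and 0.43 at day 14. All 7 values were above 0, that of replicate 2 of day 10 only just. Among all genes with at least 7 values, 3.92% had 1 sign throughout. At day 14 the mean was 0.53 (SE 0.11, limma unadjusted p = 0.000902, adjusted p = 0.605). The mean of days 10 and 14 was 0.37 (SE 0.08), with a limma unadjusted p of 0.000586 and an adjusted p of 0.122. Day 8 gave it no value.

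**Figure D3:**
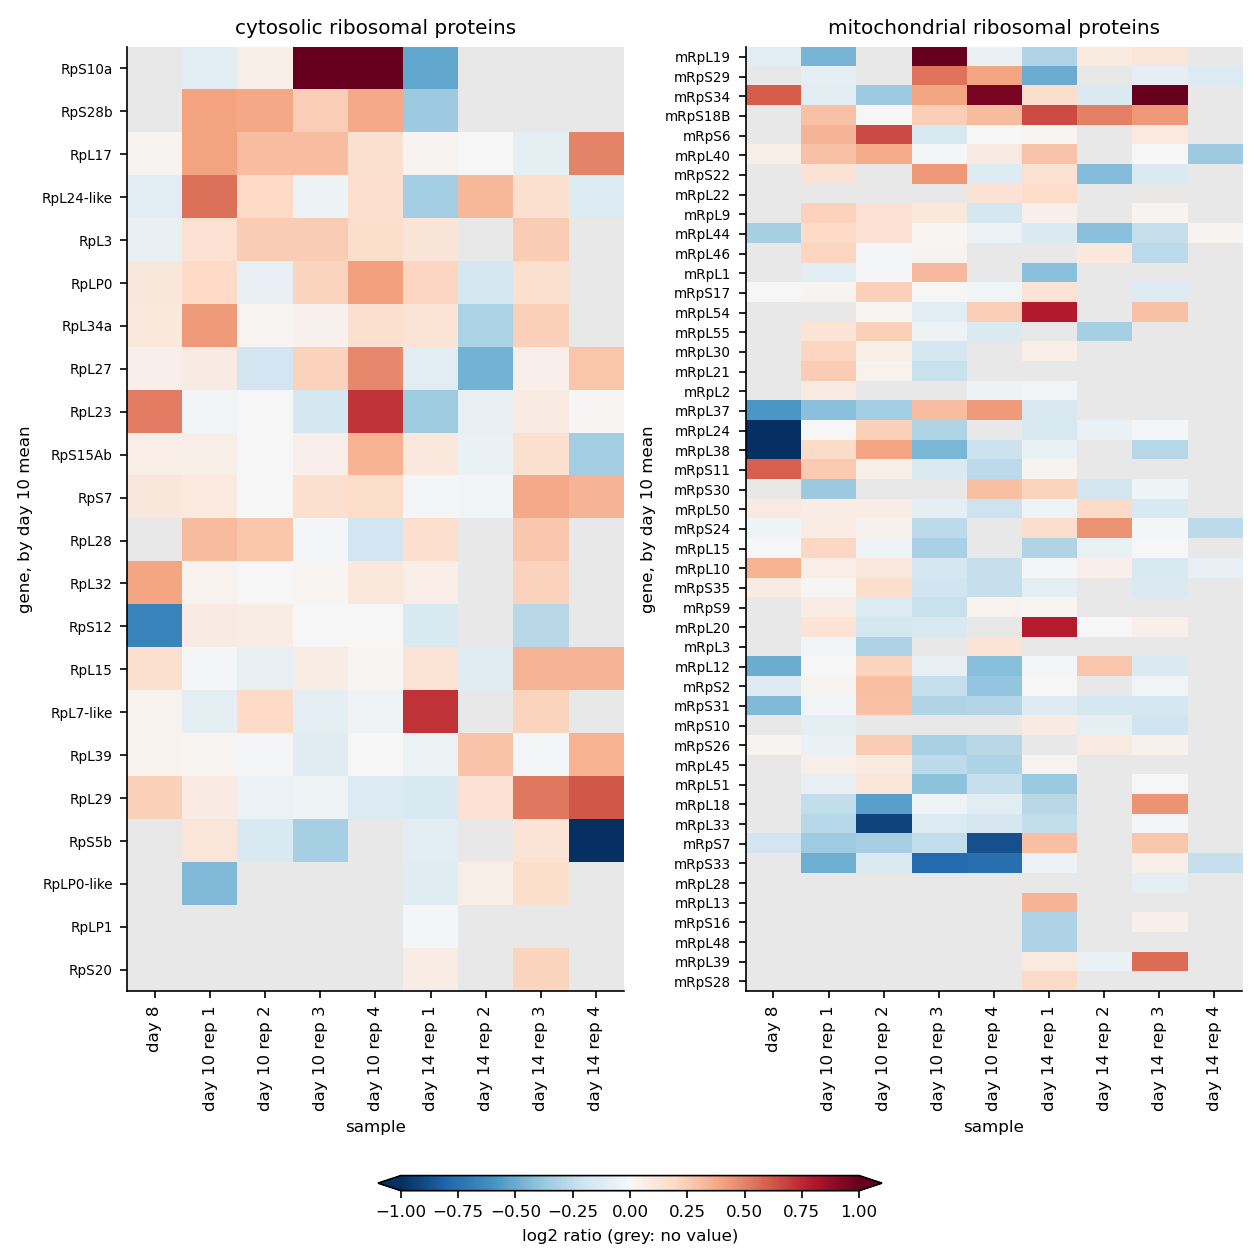
Log2 ratio of each ribosomal protein gene (cytosolic on the left, mitochondrial on the right, ordered by day 10 mean) in each of the 9 samples, with grey for no value and full colour at 1 or more from 0. mRpS18B is above 0 in all 7 samples that measured it, and many mitochondrial genes are above 0 on replicates 1 and 2 of day 10 and below 0 on replicates 3 and 4.

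The day 10 arrays fell into 2 pairs, replicates 1 and 2 against replicates 3 and 4, and many mitochondrial genes followed that division. Of 25 mitochondrial genes with a value on all 4 arrays, 9 (36%) were above 0 on replicates 1 and 2 and below 0 on replicates 3 and 4, against 17.8% of all genes. They were mRpL10, mRpL38, mRpL45, mRpL50, mRpL55, mRpS11, mRpS17, mRpS2 and mRpS35. For example, mRpL38 stood at 0.19, 0.40, -0.46 and -0.21. mRpS2 stood at 0.03, 0.30, -0.24 and -0.39. mRpL45, which in mammals ties the ribosome to the inner membrane, stood at 0.06, 0.09, -0.26 and -0.31.

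Of 18 cytosolic genes, 2 showed that pattern, RpL28 and RpS12, but RpS12 was only just below 0 on replicates 3 and 4, at -0.002 and -0.005. Among the mitochondrial genes with the pattern, mRpS17 was likewise close to 0 there, at -0.006 and -0.03. The reverse pattern, below 0 on replicates 1 and 2 and above 0 on 3 and 4, was shown by RpL15, mRpL37 and mRpS34, and by 10.7% of all genes. Signs on all 4 day 10 arrays were above 0 for 5 of 18 cytosolic genes (27.8%: RpL17, RpL3, RpL32, RpL34a and RpS28b) and for 1 of 25 mitochondrial genes, mRpS18B, against 10.7% of all genes. RpL32 and mRpS18B were only just above 0 on replicate 2, at 0.003 and 0.001. Below 0 on all 4 arrays were 0 cytosolic and 4 mitochondrial genes (16%: mRpL18, mRpL33, mRpS33 and mRpS7), against 12.2% of all genes.

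**Figure D4:**
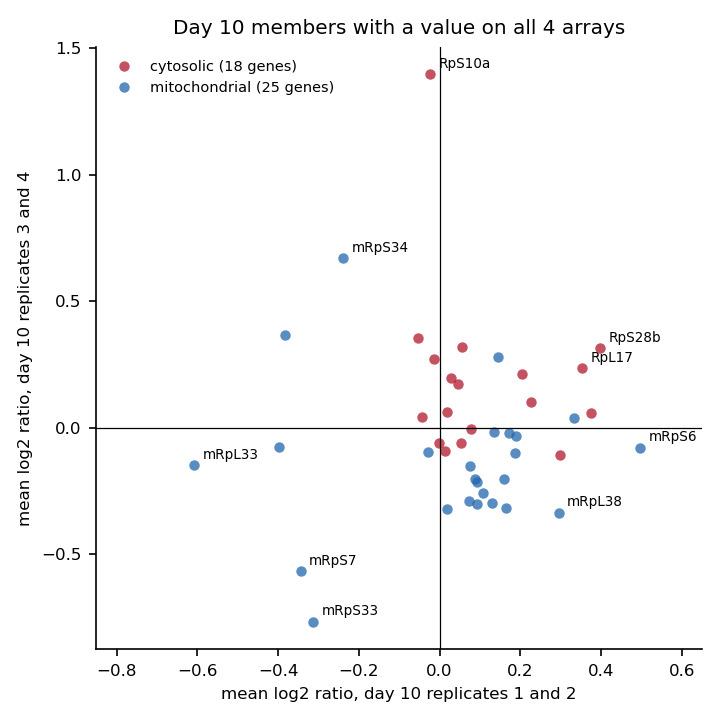
For each gene with a value on all 4 day 10 arrays, its mean log2 ratio on replicates 1 and 2 (x axis) against replicates 3 and 4 (y axis). The lower right includes the 9 mitochondrial genes with values above 0 on both arrays of the first pair and below 0 on both of the second. RpL28 and RpS12 share that pattern, and other genes of both sets lie there by their pair means alone. RpS10a and the 4 mitochondrial genes below 0 on all arrays lie apart.

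All genes together showed the same division of arrays. As a description across genes, which are not independent replicates, Pearson's r over all genes was 0.50 between replicates 1 and 2 and 0.55 between replicates 3 and 4, and between -0.07 and 0.03 across the pairs. Over mitochondrial genes the within-pair values were 0.61 (34 genes) and 0.44 (29 genes), and over cytosolic genes 0.50 (19 genes) and 0.79 (18 genes). Head fat body markers also differed between the pairs, with medians of -0.22 and -0.26 on replicates 1 and 2, and 0.18 and 0.51 on replicates 3 and 4, from 2 to 4 genes an array. The genes behind these medians differed, as Fbp1 had a value only on replicates 3 and 4 and Lsp2 none on replicate 1. Glial markers stood at -0.48 and -0.32 on replicates 1 and 2, and 0.06 and -0.03 on replicates 3 and 4. They were 2 genes on each of replicates 1 and 2 and 3 genes on replicates 3 and 4, where alone moody had a value. The 2 genes of replicate 2 stood at -0.70 and 0.05, and all 3 of replicate 4 were below 0. Neuronal markers stood at 0.09 and -0.03 on replicates 1 and 2, and 0.22 and 0.40 on replicates 3 and 4. Replicate 2 had 1 neuronal gene and the others 2. Eye markers did not divide in this way, at 0.27, 0.11, 0.27 and 0.05. Whether dye orientation, tissue content or treatment accompanies the pairs was not tested. The limma fit took the 4 arrays of a day as independent, so its day 10 SE and p do not account for these pairs.

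At day 14, 32 genes were tested and limma called 0, as it called 0% of 3005 genes. At an unadjusted p under 0.05 were 1 of 13 cytosolic and 1 of 19 mitochondrial genes, both above 0, against 6.66% of all genes (4.26% above 0 and 2.40% below). The first was RpL29, which stood at -0.15, 0.14, 0.52 and 0.62 (mean 0.29, SE 0.13, limma unadjusted p = 0.0452, adjusted p = 0.727). Its replicates 3 and 4 were high and replicate 1 below 0. The second was mRpS18B, given above. By subunit, the day 14 medians were 0.05 for the cytosolic large (8 of 10 genes above 0) and -0.04 for the cytosolic small subunit (1 of 3). They were -0.03 and -0.07 for the mitochondrial large and small subunit.

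The other cytosolic genes with the highest day 14 means were RpL15, RpS7 and RpL39. RpL15 stood at 0.14, -0.12, 0.34 and 0.34. RpS7 stood at -0.02, -0.02, 0.38 and 0.34. RpL39 stood at -0.05, 0.28, -0.01 and 0.35. Replicate 4, the thinnest array, was high in all 3, replicate 3 in RpL15 and RpS7, and replicate 2 in RpL39.

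The lowest cytosolic means of day 14 were those of RpS5b, RpL23, RpL27 and RpS15Ab. RpS5b stood at -0.11, 0.14 and -1.69, a mean of -0.55 ± 0.99 (SD, n = 3) set by replicate 4. RpL23 stood at -0.36, -0.08, 0.09 and 0.01, and RpL27 at -0.11, -0.48, 0.05 and 0.28. RpS15Ab stood at 0.11, -0.07, 0.16 and -0.35, but on replicate 4 its spots lay 2.08 apart. None of the 4 genes had 1 sign on all arrays.

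At day 14, 4 of 19 mitochondrial genes (21.1%) and 0 of 13 cytosolic genes were below 0 on every array with a value, against 12.7% of all genes. The 4 were mRpL15, mRpL24, mRpS29 and mRpS31. mRpS29 stood at -0.50, -0.09 and -0.14 and mRpS31 at -0.13, -0.18 and -0.18. The arrays of mRpS31 lay closest together among the 4 lowest means of the day. Above 0 on every array was mRpS18B alone, against 14.5% of all genes.

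Of the further mitochondrial genes at the ends of the day 14 order, mRpS34, mRpL20 and mRpL39 each had 1 array far above the others. mRpS34 stood at 0.17, -0.15 and 1.20. mRpL20 stood at 0.78, -0.01 and 0.05 and mRpL39 at 0.10, -0.07 and 0.56. At the low end, mRpL44 was below 0 on 3 of 4 arrays, at -0.14, -0.42, -0.24 and 0.03, and mRpS22 on 2 of 3, at 0.15, -0.43 and -0.15.

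**Figure D5:**
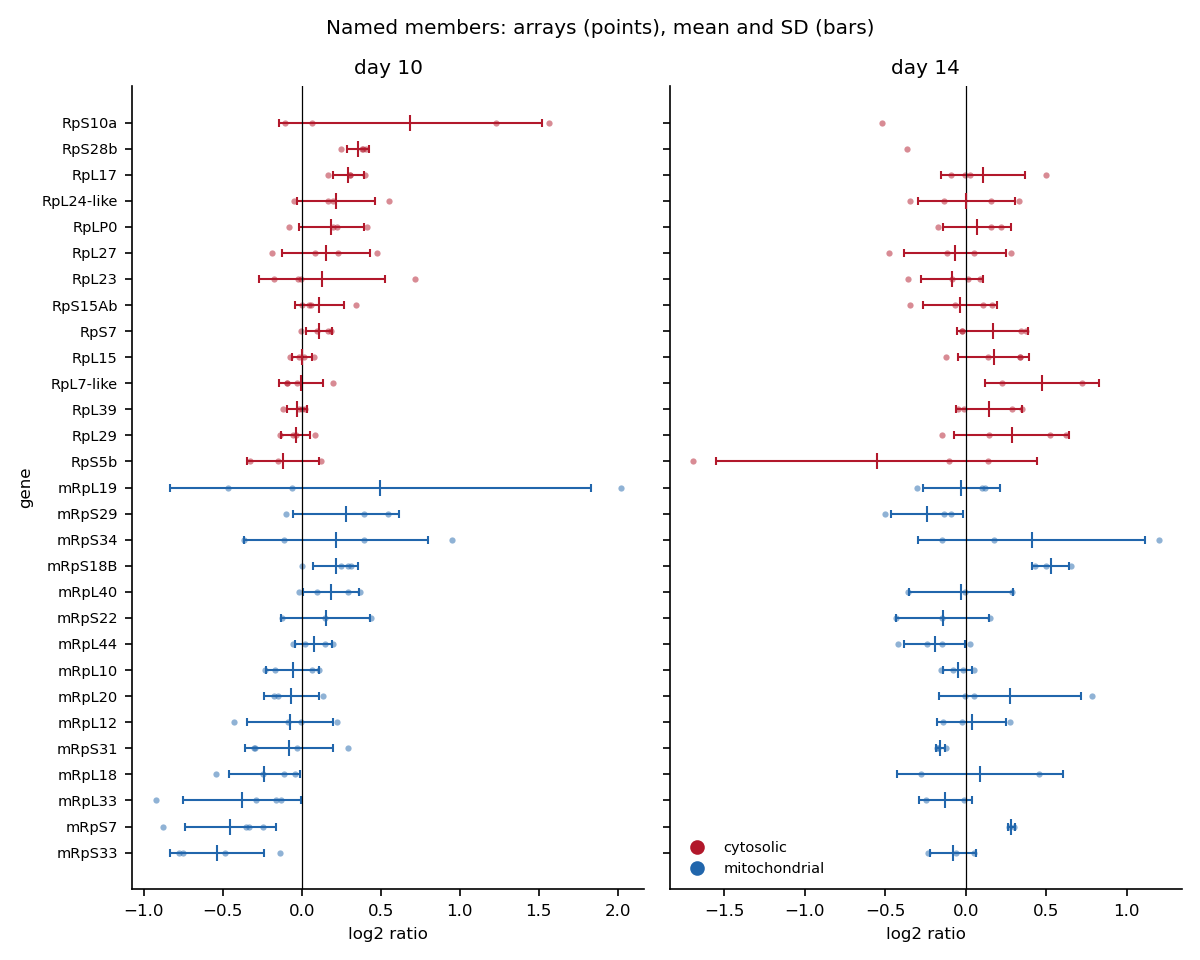
Log2 ratios of named genes with at least 3 day 10 values on each array of day 10 and day 14 (points), with mean and SD (bars). RpS28b, RpL17, mRpS33 and mRpS7 keep 1 sign on all day 10 arrays, mRpS18B does so on both days, and RpS10a, mRpL19 and RpS5b are among those with a wide spread.

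Day 14 was set against day 10 in the same limma fit for the 28 genes tested at both days, and 0 were called, as were 0% of 2382 genes. At an unadjusted p under 0.05 were 0 of 12 cytosolic and 2 of 16 mitochondrial genes, 1 above and 1 below 0, against 7.14% of all genes (3.57% in each direction). The first was mRpS33, with a difference (day 14 minus day 10) of 0.46 (SE 0.19, limma adjusted p = 0.644). The second was mRpS29, with a difference of -0.52 (SE 0.22, limma adjusted p = 0.644). The median difference was -0.15 over the cytosolic and -0.03 over the mitochondrial genes, with 4 of 12 and 8 of 16 above 0, against -0.01 and 48.6% of all genes.

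The cytosolic genes with the highest difference were RpL29 at 0.32, RpL39 at 0.17 and RpL15 at 0.17, all of the large subunit. The lowest were RpS5b at -0.44, RpL27 at -0.22 and RpL24-like at -0.22. mRpL20 at 0.34 and mRpS18B at 0.31 followed mRpS33, and mRpL19 at -0.53 and mRpS22 at -0.30 stood beside mRpS29. Apart from the pair of genes given above, limma's unadjusted p of these was between 0.063 and 0.356.

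Averaged over days 10 and 14, limma called 0 of the 28 genes, as it called 0% of 2382. Of 12 cytosolic genes 11 were above 0, with a median of 0.09, and of 16 mitochondrial genes 8 were above 0, with a median of -0.01. Over all genes the share above 0 was 54.6% and the median 0.02. RpL17 was the 1 cytosolic gene at an unadjusted p under 0.05, at 0.20 (SE 0.08, limma adjusted p = 0.326). mRpS18B was above 0 and mRpS33, at -0.31 (SE 0.09, limma adjusted p = 0.257), below. The threshold took in 12.6% of all genes, 6.63% above 0 and 6.00% below.

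Day 8 gave 34 of the genes a value, 12 of 15 cytosolic and 8 of 19 mitochondrial ones above 0, with the 4 identical columns read as 1 sample. Only 5 had a value in 3 or more columns and were tested, and limma called 0 of them, against 3.86% of 518 genes. RpL17 stood at 0.03, RpL27 at 0.05, mRpL40 at 0.06, mRpL10 at 0.34 and mRpL44 at -0.33. At an unadjusted p under 0.05 were 0 of the 5 genes, against 7.53% of all genes (0.965% above 0 and 6.56% below). The p-values of day 8 borrow the spread of days 10 and 14, since 1 sample has none of its own.

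Outside the tested genes, day 8 held the lowest mitochondrial values of the study. mRpL24 stood at -1.95 and mRpL38 at -1.67. The spots of mRpL38 lay 3.19 apart there, on the second column. RpL23 was the highest cytosolic gene at 0.51 and RpS12 the lowest at -0.66.

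Genes that build and serve the ribosome were read from lists. None was called, and the percentages of all genes are those given above for each day. Of 25 tested ribosome biogenesis genes, 17 were above 0 at day 10 with a median of 0.15, and 5 had a limma unadjusted p under 0.05, all above 0. Those with the smallest p were Dis3, a catalytic subunit of the RNA exosome, at 0.50 (SE 0.10, limma adjusted p = 0.111), mbm, a nucleolar protein of brain neuroblasts, at 0.49, and Tif-IA, the initiation factor of RNA polymerase I, at 0.71. At day 14, 12 of 20 were above 0. Noc2, a nucleolar assembly factor, stood at -0.85 and eIF6, which keeps new large subunits from joining too early, at 0.28 (limma adjusted p = 0.605 and 0.697). In the day 8 sample Nopp140, a nucleolar chaperone, stood at -0.76 (SE 0.20, limma adjusted p = 0.0717).

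Translation initiation and elongation factors had 6 of 17 genes above 0 at day 10, with a median of -0.07, and 12 of 16 at day 14. eIF4B and eIF4G1, which work with the cap-binding complex, stood at -0.50 and -0.31 at day 10, and eIF3i at 0.38 (limma adjusted p = 0.113, 0.224 and 0.227). Of 9 growth signalling genes, 4 were above 0 at day 10, and crc, the fly ATF4, stood at 0.29 (limma adjusted p = 0.344). Of 11 genes of mitochondrial translation and genome upkeep, 7 were above 0 at day 10. mEFTu2, an elongation factor of the mitochondrial ribosome, stood at 0.47 at day 10 and GatA, of the enzyme that completes mitochondrial glutaminyl-tRNA, at 0.34 at day 14 (limma adjusted p = 0.236 and 0.629).

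The list of cytosolic paralogs enriched in the germ line had 3 genes with a value of 9, RpS5b, RpS10a and RpS15Ab, 2 of which had a day 10 mean above 0. Of the ribosomal proteins that carry other symbols, Rack1, a small-subunit protein that docks kinases, had a day 10 mean of 0.03 (limma adjusted p = 0.942) from values of 0.14, -0.18 and 0.14.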

How the data were processed

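Each of 12 two-colour cDNA arrays gave 1 deposited log2 ratio per spot. The deposited values are ratio normalized, per the labels. Per the series text, the authors read images with GenePix Pro 6.0, normalized in Acuity 4.0 and removed spots with 3% or more saturated pixels, a between-channel R2 below 0.6 or a signal-to-noise ratio below 3, then tested in SAM 2.21 spots measured in 3 of 4 replicates. Base 2 was assumed for the logarithm, since no source used here states it. Spot intensities were not analysed here. Precision is limited by the number of arrays, missing spots, the 1 day 8 sample and the unsettled dye orientation.

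Of 27648 spots, 15116 carried 1 gene name, 102 several (left out), and 12430 none here; 180 belonged to the ribosomal protein genes. Symbols were updated through gene numbers (14894 spots), or names and synonyms (210), in the RefSeq table. The median of each array, between -0.309 and 1.59 as deposited, was set to 0, and spots were averaged per gene, most genes having 2 spots and 10 having 4. Tests needed values on at least 3 of the 4 arrays of a day.

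A mean per day was fitted to 9 samples and 5279 genes by lmFit and eBayes of limma 3.58.1 under R 4.3.3, tested against 0, with Benjamini-Hochberg adjustment over all genes tested in that comparison and a call at an adjusted p under 0.05. The step was tested on simulated data with noise drawn independently for each array. The day 10 arrays correlate in pairs, so the simulation does not show how the fit performs on them. Day 8 had been planned as 4 arrays and was read as 1 sample after its identical columns were seen. Setting array medians to 0 follows an earlier analysis of these data. Dye terms were left out because the swapped arrays are not identified in the sources used here. Figures were drawn with matplotlib 3.10.9.

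The genes and lists were chosen with earlier results of these data known. Genes were named by a rule: those with 3 or more day 8 columns, the 4 highest and 4 lowest means of each set at days 10 and 14, the 3 highest and lowest differences of each set, genes called or with 1 sign on all arrays of days 10 and 14, and members of special role. Of the other lists, genes with an unadjusted p under 0.05 were eligible, at most 3 each way per list and day. Genes named as holding a sign pattern, and RpL3, RpL32, RpL34a, RpL28, RpS12, RpS20, RpLP0-like and Rack1, were picked out once their values had been seen. The replicate numbers of days 10 and 14 were checked for pairing: deviations of same-numbered arrays correlated at -0.102, 0.304, 0.152 and 0.119, and the numbers were not taken as pairs. The alternatives were other centring, spot averaging and filters, turned signs, a replicate block, and leaving out each replicate.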

Additional observations from a re-analysis of the deposited data

Results flagged for a closer look

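In 59 groups of 4 arrays, 3 arrays stood apart from the other 3 of their group by Dixon's criterion, which marks about 5% of groups by chance. Most groups were 1 gene on 1 day, 43 at day 10 and 12 at day 14. RpS15Ab stood at 0.344 on replicate 4 of day 10, above 3 arrays near 0. RpS28b stood at 0.248 on replicate 3 of day 10, below 3 arrays between 0.38 and 0.40. mRpS7 stood at -0.882 on replicate 4 of day 10, below 3 arrays between -0.36 and -0.25. No cause was tested for any of them.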

How the results depend on the processing

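With the values as deposited, without setting array medians to 0, limma called 31 of the 32 tested genes at day 14, 27 of 28 for day 14 minus day 10 and 26 of 28 for the mean of both days, by construction, since the deposited day 14 medians lie between 0.558 and 1.59; it called 2996 of all 3005 genes at day 14. The cytosolic and mitochondrial medians were then 0.234 and 0.123 at day 8, -0.137 and -0.269 at day 10, and 1.212 and 1.156 at day 14. At day 8, the genes with a value in all 4 columns gave a mitochondrial median of 0.203 and a difference (cytosolic minus mitochondrial) of -0.177, and those with at least 3 columns, a choice added after seeing the data, a mitochondrial median of 0.062. Turning the signs of day 10 replicates 1, 2 and 3 gave a day 10 cytosolic median of -0.011. Turning replicates 3 and 4 of both days gave medians of 0.029 and 0.12 and a difference of -0.091 at day 10, and medians of -0.096 and 0.025 and a difference of -0.121 at day 14. Turning replicates 2 and 4 or 2 and 3 gave day 10 cytosolic medians of 0.003 and 0.037. The cause of these shifts was not tested. With the replicate number as a block, 1 gene was called at day 10, RpS10a (limma adjusted p = 0.0468), among 43 of all 4651 genes. That fit had as many terms as RpS10a had values, so this p does not measure the spread between its arrays. No ribosomal protein gene was called under any of the other alternatives, and over all alternatives but the values as deposited the limma adjusted p of mRpS33 at day 10 ranged from 0.0503 to 1.0 and that of mRpS18B for the mean of both days from 0.0728 to 1.0. In the values as deposited these were 0.0859 and 0.000773. Leaving out 1 replicate at a time, which could also change the genes tested, gave a day 10 difference of 0.042 to 0.193 and a day 14 difference of -0.019 to 0.205. The precision is limited by 4 arrays a day, by missing spots, by 1 sample at day 8 and by the unsettled dye orientation.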

Other observations

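Nuclear genes of oxidative phosphorylation, which work beside the products of the mitochondrial ribosome, were not called by limma in any comparison. At day 10, 21 of 28 tested genes were above 0, against 53.1% of all genes, with a median of 0.05, and 3 had a limma unadjusted p under 0.05, all above 0, where 13.2% of all genes passed that threshold and 7.57% did so above 0. They were ATPsynE at 0.39 (SE 0.10, limma adjusted p = 0.161) and ATPsyngamma at 0.30, both of the ATP synthase, and COX4, of cytochrome c oxidase, at 0.43. At day 14, 19 of 24 were above 0, against 52.2% of all genes, with a median of 0.12, and 7 had a limma unadjusted p under 0.05, all above 0, against 6.66% of all genes and 4.26% above 0. Those with the smallest p were ND-B17.2 of complex I at 0.33 (SE 0.10), levy of cytochrome c oxidase at 0.36 and ATPsynE at 0.26 (limma adjusted p = 0.629, 0.641 and 0.653). These values stand on the same arrays on which the mitochondrial ribosomal protein genes had medians of -0.02 and -0.03.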
